A study of Homo sapiens with 6 samples.

Results

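The imprinted growth genes examined here are H19, IGF2, PEG3, PEG10, MEST, DLK1, MEG3, PHLDA2, PLAGL1 and GRB10, chosen by name and matched by symbol to the Ensembl IDs of the count table. All 10 were found among its 35716 genes. MIA PaCa-2 is an established human pancreatic carcinoma line labelled as wild type. It was sequenced as poly(A)-selected RNA in 3 libraries without treatment and in 3 libraries after 24 h of 10 nM triptolide. For the untreated libraries the treatment label gives no time. Triptolide is a plant diterpenoid that acts on XPB, a helicase subunit of TFIIH, and thereby on transcription. The series title sets the work in pancreatic cancer, autophagy and the extracellular matrix. No label says that libraries of a group were separate cultures, so the p-values rest on the spread among these libraries, and that spread may be technical only.

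An imprinted gene is transcribed mainly from the copy inherited from a given parent, because methylation marks laid down in egg or sperm are kept through development. H19, MEG3 and PHLDA2 are known as maternally expressed, IGF2, PEG3, PEG10, MEST, DLK1 and PLAGL1 as paternally expressed, and GRB10 changes parent with tissue and isoform. Many of these genes set fetal and placental growth and are most abundant in placenta. Counts per gene do not separate parental copies, so imprinting itself was not measured.

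H19 and MEG3 are the noncoding RNAs of their clusters, which hold the growth factor gene IGF2 and the membrane protein gene DLK1, and their RefSeq upstream sequences are shown because imprinting acts through methylation of CpG dinucleotides near such starts. Each run is the 250 bases before the most upstream start in RefSeq (GRCh38.p14), 5′ to 3′ on the gene's strand, with CpG dinucleotides in capitals. H19 lies on the minus strand at chr11:2001267-2001516 and MEG3 on the plus strand at chr14:100825858-100826107.
H19: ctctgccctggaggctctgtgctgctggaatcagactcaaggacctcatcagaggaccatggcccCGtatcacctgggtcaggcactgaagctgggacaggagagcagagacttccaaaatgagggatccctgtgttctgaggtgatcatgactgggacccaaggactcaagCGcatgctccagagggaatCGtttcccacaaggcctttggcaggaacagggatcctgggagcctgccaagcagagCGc
MEG3: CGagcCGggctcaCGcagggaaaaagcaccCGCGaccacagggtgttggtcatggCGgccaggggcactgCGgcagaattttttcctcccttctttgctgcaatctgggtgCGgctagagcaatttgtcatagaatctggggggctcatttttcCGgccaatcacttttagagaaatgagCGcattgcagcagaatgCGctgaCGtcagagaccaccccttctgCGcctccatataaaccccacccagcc

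The H19 window held 4 CpG dinucleotides and the MEG3 window 13, against a median of 10 over the 27326 genes with such a window. Windows with at least as many made up 69.9% of all for H19 and 46.2% for MEG3. Each window lies before the most upstream start only and need not cover the region whose methylation carries the imprint. Of the other members, 3 had an entry. GRB10 held 37 CpG dinucleotides, a number that 3.88% of windows reached, PLAGL1 held 21 and MEST 9. The letters TATAAA, searched on both strands, occurred in the MEG3 window and in 11.2% of all windows. CCCTC, short letters of the kind found in CTCF motifs, was found on either strand in the H19, GRB10, MEST and PLAGL1 windows and in 65.6% of all windows. These matches describe letters and no site.

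Total counts ran from 16302961 to 23262713 per library. Of 15202 genes that passed edgeR's low-count filter, 10.0% were higher and 5.82% lower with triptolide at an adjusted p under 0.05, and in 36.7% the groups did not overlap in CPM (counts relative to the library size, scaled by edgeR's TMM method). Of all calls, 63.3% were higher; the share was 73.8% with library totals alone, 90.2% with scaling on ribosomal protein genes and 53.2% with an offset for GC content. Among markers of the labelled carcinoma, KRT8, VIM, KRT18 and KRT19 were the most abundant, while EPCAM and GRHL2 had at most 3 counts in any library. In bulk RNA, fewer cells of a type and less RNA per cell cannot be told apart.

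With triptolide, DLK1, H19 and PHLDA2 rose by 6.01-fold, 3.61-fold and 1.95-fold, to means of 2.61 ± 0.48, 3.41 ± 1.86 and 90 ± 23.1 CPM (SD, n = 3 libraries). The levels of MEST, MEG3, PEG10 and GRB10 did not pass the test. PEG3, IGF2 and PLAGL1 had too few counts to be tested. Of the 7 members tested, 3 rose and 0 fell in edgeR, against the 10.0% higher and 5.82% lower of all genes tested. Unadjusted, 4 were higher and 1 was lower at an edgeR p under 0.05, a threshold at which the share of all genes was not computed. DESeq2 likewise called 0 members lower, beside 1123 of all 15202 genes, and limma-voom called 0 lower, beside 899. In 4 of the 7 (MEST, DLK1, MEG3 and PHLDA2) the groups did not overlap, beside 36.7% of all tested genes. The filter asks for about 0.529 CPM in 3 libraries, and DLK1 reached that level in 0 untreated libraries and H19 in 2 of 3. Both genes therefore entered the test only through the triptolide group, where they were high, so the count of called members is a description only.

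**Figure D1:**
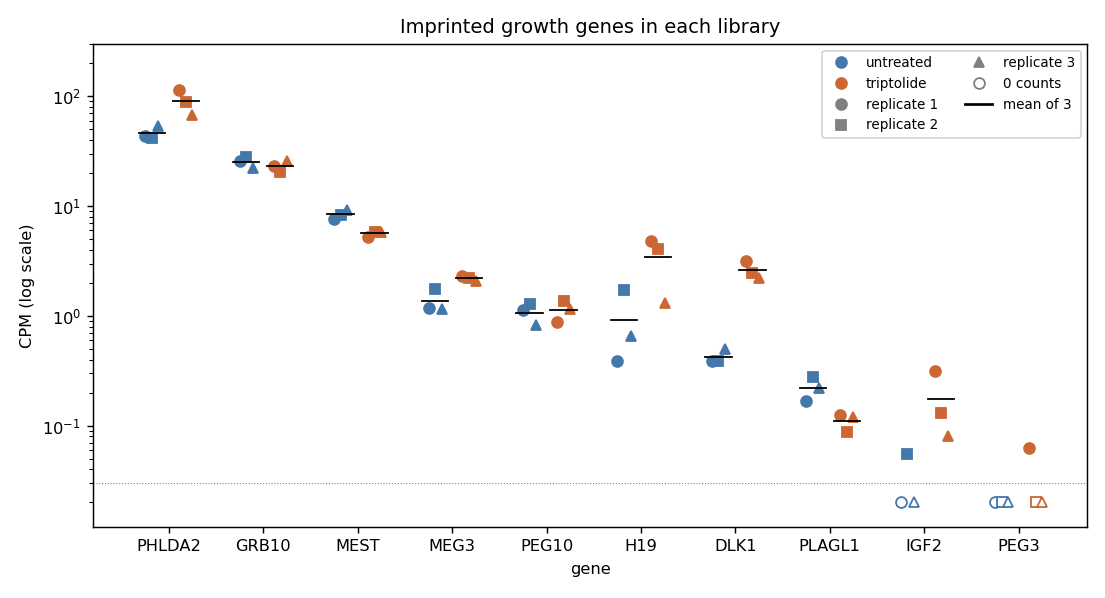
Level of each of the 10 genes in every library, in CPM on a log axis, with untreated libraries in blue and triptolide libraries in orange, replicates by shape and bars at the mean of 3 (drawn where a group had more than 3 counts). Open symbols below the dotted line stand for 0 counts. PHLDA2 and DLK1 lie higher in each triptolide library than in any untreated library, whereas the H19 groups overlap.

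Differences in level between members are given per kilobase of exon, from the exon union of GENCODE 29, because long genes collect more reads. In untreated cells the mean level was 48.3 ± 6.61 CPM per kb for PHLDA2, 2.60 ± 0.28 for GRB10 and 1.75 ± 0.15 for MEST (SD, n = 3). PHLDA2 thus stood far above the rest. H19 followed at 0.319 ± 0.24 CPM per kb and PEG10 at 0.161 ± 0.034, which did not differ beyond their spread. DLK1 at 0.0801 ± 0.011 and MEG3 at 0.059 ± 0.015 CPM per kb also lay within their spread of each other, and MEG3's union of 23.2 kb over many isoforms lowers its value. PLAGL1 stood at 0.0254 ± 0.0062 CPM per kb, with IGF2 and PEG3 at or near 0. With triptolide the order kept PHLDA2 at 94.3 ± 24.2 and GRB10 at 2.37 ± 0.26 CPM per kb at the top. MEST at 1.18 ± 0.077 and H19 at 1.18 ± 0.64 CPM per kb were then level with each other, and DLK1 at 0.492 ± 0.09 stood above PEG10 at 0.169 ± 0.036.

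Among the growth factor and ligand genes, IGF2 (ENSG00000167244), the fetal growth factor of the insulin family, was close to absent. It had 0, 1 and 0 counts in untreated replicates 1, 2 and 3, and 5, 3 and 2 counts in the triptolide libraries. Every triptolide library held more IGF2 counts than any untreated library, but none held more than 5. The pooled ratio was 8.47 with a 95% exact interval from 1.21 to 368. That interval holds for counting error alone, because pooling leaves out the spread between libraries. PCR copies of a molecule were also not marked by identifiers. IGF2 reads cannot be told apart from those of its antisense partner IGF2-AS, whose 3 triptolide libraries held 1 count each, because the strand setting of the counting is not given in the sources used here.

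DLK1 (ENSG00000185559), a membrane protein with EGF-like repeats related to the Notch ligands, was counted 7, 7 and 9 times without triptolide and 50, 56 and 56 times with it. In CPM these were 0.393, 0.388 and 0.496 against 3.15, 2.45 and 2.24. The 3 libraries of each group lay close together, and the groups were far apart. DLK1 differed by 2.59 ± 0.31 (SE) on the log2 scale (edgeR adjusted p = 0.000292). It stayed between 2.46 and 2.79 under the 14 alternatives that could test DLK1, with an adjusted p of at most 0.00212.

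H19 (ENSG00000130600), a noncoding RNA and microRNA host known to restrain growth, had 7, 31 and 12 counts in untreated replicates 1, 2 and 3, and 77, 93 and 33 in triptolide replicates 1, 2 and 3. In CPM these were 0.393, 1.72 and 0.661 against 4.85, 4.07 and 1.32. Untreated replicate 2 was high within its group and triptolide replicate 3 low within its own, so that the groups overlapped. H19 differed by 1.85 ± 0.53 (SE) on the log2 scale (edgeR adjusted p = 0.0339). Its coefficient of variation between libraries beyond counting error was estimated at 0.407, whereas the other 6 tested members had values from 0.154 to 0.184. The H19 call was lost without untreated replicate 1 (adjusted p = 0.0793), untreated replicate 3 (0.105), triptolide replicate 1 (0.119) or triptolide replicate 2 (0.0542), and in limma-voom (0.0538). Without untreated replicate 2 its log2 fold change was 2.65, and without triptolide replicate 3 it was 2.26.

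MEG3 (ENSG00000214548), the maternally expressed noncoding RNA that lies next to DLK1 in RefSeq's gene order, was counted 21, 32 and 21 times without triptolide and 37, 51 and 52 times with it. The values were 1.18, 1.77 and 1.16 CPM against 2.33, 2.23 and 2.08 CPM. Each triptolide library stood above each untreated library, by a small margin. The log2 fold change was 0.69 ± 0.27 (SE) and did not pass (adjusted p = 0.105), nor did it under any of the 14 alternatives that could test it, where the adjusted p ran from 0.0706 to 0.286. The difference between the changes of DLK1 and MEG3 was not tested. Further along that cluster, the retrotransposon-derived gene RTL1 had 14 counts over the untreated group and 23 over the triptolide group. MEG8 had 3 and 4, MEG9 3 and 1, and DIO3, which encodes a deiodinase that inactivates thyroid hormone, 0 and 3. Those 4 neighbours were too low to be tested.

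PHLDA2 (ENSG00000181649), a pleckstrin-homology protein known to limit placental growth, was the most abundant member, counted 774, 752 and 969 times without triptolide and 1810, 2017 and 1698 times with it. In CPM these were 43.4, 41.7 and 53.4 against 114, 88.3 and 67.8. All triptolide libraries exceeded all untreated ones, and replicate 1 was the highest of the triptolide libraries. PHLDA2 differed by 0.96 ± 0.20 (SE) on the log2 scale (edgeR adjusted p = 0.00806), and the log2 fold change ranged from 0.77 to 1.13 over 15 alternatives, passing in each. Both PHLDA2 and H19 have GC-rich transcripts, at 63.1% and 63.4%. With the GC offset PHLDA2 had a log2 fold change of 0.83 (adjusted p = 0.0019) and H19 1.69 (adjusted p = 0.04997).

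CDKN1C, a maternally expressed inhibitor of cyclin-dependent kinases, lies near PHLDA2, with 2 coding or long noncoding genes between them. Its levels of 2.02, 1.27 and 1.54 CPM without triptolide lay below the 9.45, 6.74 and 5.63 CPM with it. CDKN1C rose 4.47-fold (log2 fold change 2.16 ± 0.27, edgeR adjusted p = 0.000402). KCNQ1OT1, the paternally expressed noncoding RNA of that domain, had 11.2, 7.76 and 5.34 CPM against 14.9, 9.58 and 18.5 CPM, with overlapping groups. It was not called (log2 fold change 0.82 ± 0.29, adjusted p = 0.0741), while it passed without triptolide replicate 2 (0.022), without untreated replicate 1 (0.0301), in DESeq2 (0.0351) and with no low-count filter (0.00592). SLC22A18, a transporter gene, stood at 5.72 ± 1.08 and 6.81 ± 2.04 CPM (log2 fold change 0.24 ± 0.25, adjusted p = 0.55). Expression along this domain was thus higher for CDKN1C and PHLDA2 and not called for the other neighbours named.

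GRB10 (ENSG00000106070) encodes an adaptor that binds insulin and IGF receptors and dampens their signal. Its counts were 463, 504 and 408 without triptolide and 367, 472 and 647 with it, or 26, 27.9 and 22.5 against 23.1, 20.7 and 25.8 CPM. The groups overlapped. The log2 fold change was -0.13 ± 0.17 (SE; adjusted p = 0.64), and its sign turned with scaling on ribosomal protein genes (0.031). DDC, near GRB10 in gene order, had 0 counts without triptolide and 2 with it.

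Of MEST (ENSG00000106484), which encodes a protein of the alpha/beta hydrolase fold, 137, 151 and 166 reads were counted without triptolide and 83, 134 and 147 with it. In CPM these were 7.68, 8.37 and 9.14 against 5.23, 5.86 and 5.87, so that each triptolide library lay below each untreated one. The log2 fold change of -0.57 ± 0.19 (SE) had an adjusted p of 0.0606 and was not called. MEST passed with the GC offset (adjusted p = 0.0197) and in none of the other 14 alternatives. Its neighbour COPG2, a coat protein gene, had 29.2 ± 3.04 and 19.6 ± 3.25 CPM, with the same log2 fold change of -0.57 ± 0.18 (adjusted p = 0.0526), and passed with the GC offset (0.0132) and in DESeq2 (0.0336). MESTIT1, the antisense transcript at MEST, held 2 counts without triptolide and 1 with it. Without known strand its reads could not be separated from those of MEST.

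PEG10 (ENSG00000242265), a gene derived from a retrotransposon and needed for placenta formation, was counted 20, 23 and 15 times without triptolide and 14, 31 and 29 times with it. The levels of 1.12, 1.27 and 0.826 CPM overlapped those of 0.882, 1.36 and 1.16 CPM with triptolide. The log2 fold change was 0.09 ± 0.31 (SE; adjusted p = 0.867), with a sign that changed to -0.071 without untreated replicate 3 and to -0.042 without triptolide replicate 2. On the same cluster, SGCE held 13 counts without triptolide and 8 with it and was not tested. PPP1R9A, a regulatory subunit gene of a phosphatase, stood at 1.17 ± 0.26 and 0.619 ± 0.30 CPM (log2 fold change -0.87 ± 0.38, adjusted p = 0.142).

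The zinc finger genes PLAGL1 and PEG3 were, with IGF2, too low to be tested. PLAGL1 (ENSG00000118495), a transcription factor that acts on other imprinted genes, was counted 3, 5 and 4 times without triptolide and 2, 2 and 3 times with it. In CPM each triptolide library lay below each untreated one (0.126, 0.0875 and 0.12 against 0.168, 0.277 and 0.22), with none above 5 counts. The pooled PLAGL1 level was 2.02 times as high untreated. Its 95% exact interval, again for counting error alone, ran from 0.734 to 6.07, so a difference was not detectable at this depth. PEG3 (ENSG00000198300) had 0 counts in all untreated libraries and 1 count in triptolide replicate 1. A count of 0 over the untreated group allows up to 0.0555 CPM, and PEG3 was thus at or under the floor in both groups. ZIM2, which overlaps PEG3, had 1 and 0 counts, and MIMT1 0 and 1.

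**Figure D2:**
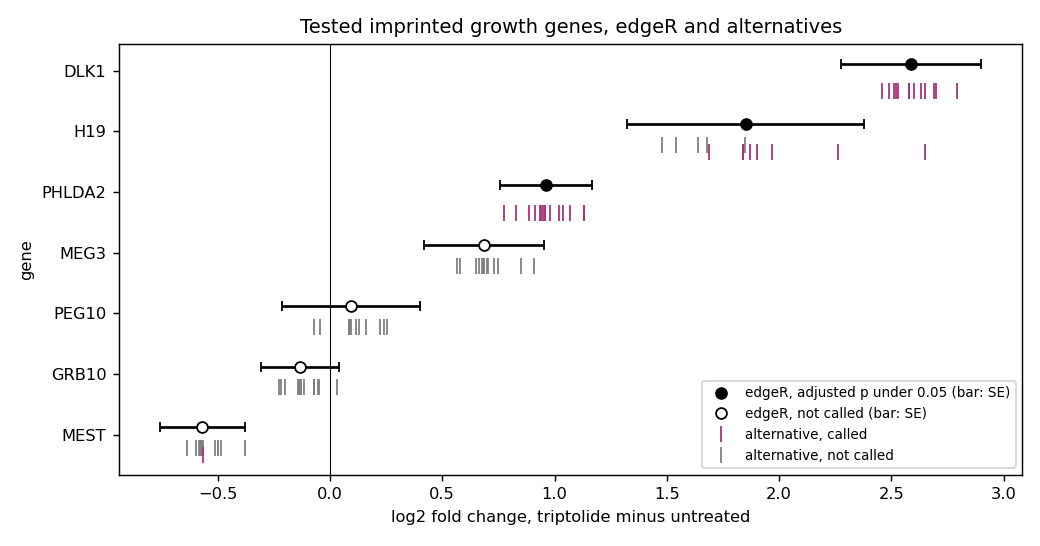
Log2 fold change of the 7 tested genes, triptolide minus untreated, with circles for edgeR (bars give the SE; filled circles were called) and ticks for each alternative setting (purple where called, grey where not). DLK1 runs from 2.46 to 2.79 and PHLDA2 from 0.77 to 1.13 with each tick called, while H19 spreads from 1.48 to 2.65 and was not called in 5 of 14.

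The other imprinted genes were taken from a list of 61, of which 56 were in the table and 28 were tested. Of those 28, 5 rose, 2 fell and 21 were not called, against 10.0% higher and 5.82% lower of all tested genes. PAPPA2 and TFPI2 of those that rose and CPA4 of those that fell passed the filter only through the group where they were high, so these counts are a description too. Their median log2 fold change was 0.30, beside -0.004 over all genes tested. PAPPA2, a protease that cleaves IGF-binding proteins and that is also a trophoblast marker, rose 24.8-fold, from 0.148 ± 0.084 to 3.80 ± 0.58 CPM (adjusted p = 2.45e-05). TFPI2, a serine protease inhibitor abundant in placenta, rose 9.43-fold, from 0.814 ± 0.50 to 7.69 ± 2.14 CPM (adjusted p = 0.000185). The transcription factor gene WT1 rose from 10.2 ± 0.74 to 20.6 ± 2.46 CPM (adjusted p = 0.00291). CDKN1C, described above, and ZNF331, a zinc finger gene at 13.3 ± 1.62 and 22 ± 2.25 CPM (adjusted p = 0.0166), were the remaining rises. The ZNF331 call was lost with ribosomal protein scaling (adjusted p = 0.105) and on leaving out untreated replicate 2 (0.0661), untreated replicate 3 (0.0536) or triptolide replicate 3 (0.0855), and this gene was named after its values were seen.

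Of those that fell, CPA4, a carboxypeptidase gene, went from 0.703 ± 0.11 to 0.188 ± 0.012 CPM (log2 fold change -1.87 ± 0.41, adjusted p = 0.00934). ADAMTS16, a metalloprotease gene, went from 3.46 ± 0.61 to 1.71 ± 0.59 CPM (log2 fold change -1.04 ± 0.29, adjusted p = 0.0299). ADAMTS16 was not called without untreated replicates 1 or 2 (adjusted p = 0.1 and 0.0618), without triptolide replicates 2 or 3 (0.0812 and 0.0729) or with ribosomal protein scaling (0.196). The count of higher genes on this list was 8 without triptolide replicate 2.

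**Figure D3:**
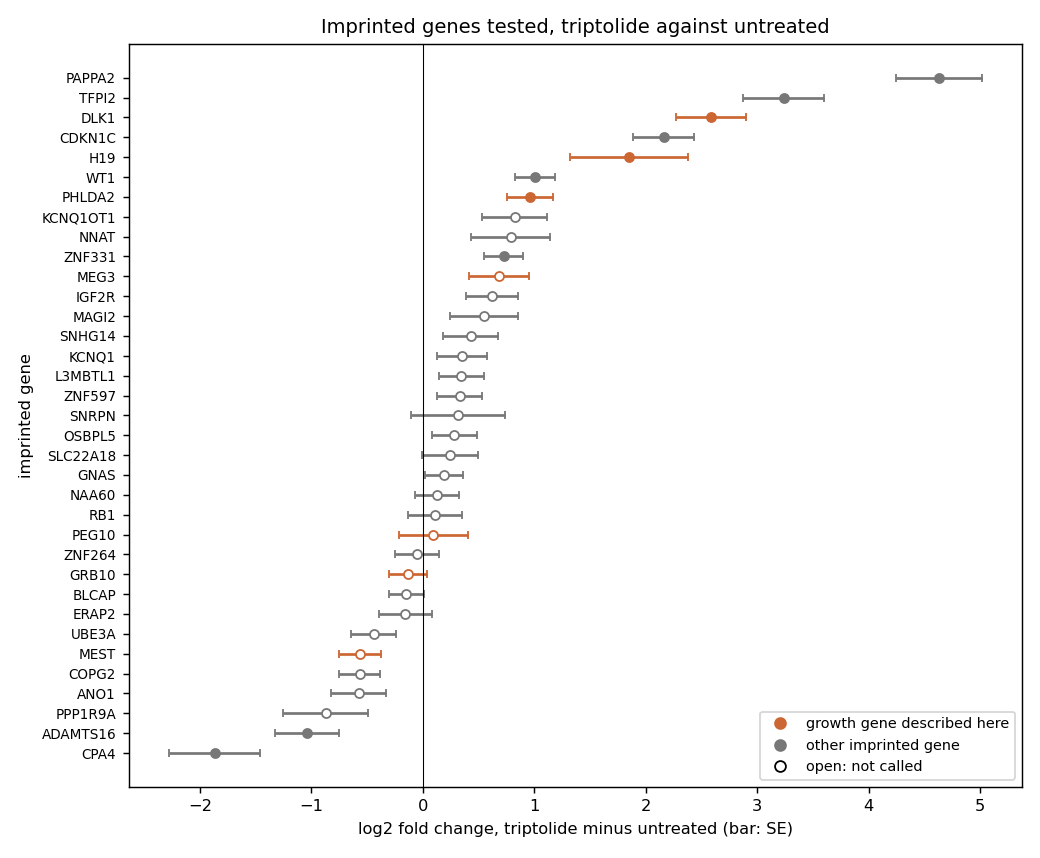
Log2 fold change of the tested growth genes and of the tested genes on the list of other imprinted genes, triptolide minus untreated, ordered by size. Bars give the SE, the 7 growth genes are in orange, the 28 others in grey, and open circles mark genes not called. DLK1 (2.59), H19 (1.85) and PHLDA2 (0.96) lie among the higher genes beside PAPPA2, TFPI2 and CDKN1C, and MEST (-0.57) lies near COPG2.

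Partners of IGF2 and GRB10 in the insulin and IGF pathway, a list of 24 genes with 19 tested, held 2 that rose and 3 that fell, beside 10.0% and 5.82% of all tested genes. Of those that fell, HMGA2 and IGFBP7 passed the filter only through the untreated group. PAPPA, a protease of IGF-binding proteins and another trophoblast marker, rose from 1.35 ± 0.45 to 3.18 ± 0.83 CPM (adjusted p = 0.018, and 0.0701 without untreated replicate 1). IGFBP3, a carrier of IGFs in serum, had 1.05 ± 0.29 and 2.04 ± 0.41 CPM (adjusted p = 0.0482), a call that was lost in 7 of 14 alternatives. HMGA2, a chromatin protein that raises IGF2 expression in development, fell from 2.48 ± 0.93 to 0.0914 ± 0.036 CPM (log2 fold change -4.63 ± 0.47, adjusted p = 0.000115). IGFBP7 fell from 1.42 ± 0.39 to 0.178 ± 0.15 CPM (adjusted p = 0.00208). GRB7, an adaptor gene of the same family as GRB10, fell from 11.3 ± 1.73 to 5.87 ± 0.37 CPM (adjusted p = 0.00677, and 0.101 with ribosomal protein scaling). The GRB7 log2 fold change was -0.95 ± 0.19 (SE), beside -0.13 ± 0.17 for GRB10, and the difference between them was not tested.

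Of 15 Notch pathway genes listed for DLK1, 11 were tested, 2 rose and 9 were not called, beside 10.0% higher of all tested genes. HES1, a transcriptional repressor switched on by Notch, stood at 2.41, 2.38 and 2.37 CPM without triptolide and at 7.68, 6.78 and 5.79 CPM with it. The HES1 rise was 2.81-fold (log2 fold change 1.49 ± 0.22, adjusted p = 0.000854). The receptor gene NOTCH4 rose 2.2-fold, from 5.77 ± 0.43 to 12.7 ± 1.03 CPM (adjusted p = 0.00178). The receptor genes NOTCH1, NOTCH2 and NOTCH3 were not called (adjusted p = 0.238, 0.144 and 0.109) but passed with no low-count filter (0.0415, 0.0083 and 0.0124), and NOTCH1 and NOTCH3 also without triptolide replicate 2 (0.0435 and 0.0305). In the other direction, JAG2 was not called (log2 fold change -0.57, adjusted p = 0.0892). As lower, JAG2 passed with the GC offset (0.00254), with no low-count filter (0.0245) and without triptolide replicate 1 (0.00532). DLK2, also uncalled (adjusted p = 0.341), passed as lower without triptolide replicate 1 (0.0106). The median log2 fold change was 0.56 for the tested Notch genes and -0.004 for all tested genes. Among 21 genes that set or keep imprints, 14 were tested, 0 rose and 1 fell, beside 10.0% and 5.82% of all tested genes, with a list median of -0.17. The gene that fell, ZNF202, fell from 15.7 ± 0.54 to 9.56 ± 0.79 CPM (adjusted p = 0.0151). The ZNF202 call was lost with ribosomal protein scaling (adjusted p = 0.316) and without untreated replicates 1 or 2 (0.0615 and 0.0581).

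Markers of other cell types moved between the same groups. Of 42 placental trophoblast markers 28 were tested and 23 rose, beside 10.0% of all tested genes. Of those 23, 18 passed the filter only through the triptolide group, where they were high, so the count describes them and no more. The summed level of the 42 was 237 to 245 CPM untreated and 849 to 1277 CPM with triptolide. CSH1 and CSH2, placental lactogen genes so alike that their reads may be mixed, stood at 4.92 ± 0.13 and 2.22 ± 0.50 CPM untreated and rose to 430 ± 175 and 157 ± 32.5 CPM. KISS1, which encodes the kisspeptin peptides, rose from 0.278 ± 0.054 to 23 ± 5.78 CPM, and PSG1, a pregnancy-specific glycoprotein gene, from 0.333 ± 0.094 to 12.8 ± 0.53 CPM. TFAP2A at 115 ± 8.01 and 128 ± 13 CPM (adjusted p = 0.55) and SDC1 at 91.5 ± 2.47 and 127 ± 16.3 CPM (adjusted p = 0.0622) were abundant in both groups and not called, nor were PSG5, PSG9 and HSD17B1. The markers HSD3B1, GCM1, ERVFRD-1, PLAC1, PSG2, PSG6, LGALS13, LGALS16, VGLL1 and INSL4 were at 0 in all untreated libraries, and none of the 42 was at 0 over the triptolide libraries. Triptolide replicate 1 had the highest trophoblast sum, and DLK1, H19, PHLDA2 and CDKN1C were also highest in that library. That holds for the sum and not for each marker. CSH1 had 632, 322 and 336 CPM in the 3 triptolide libraries, and without CSH1 the sums were 645, 557 and 512.5 CPM. Of the 23 markers that rose, 11 were highest and 9 lowest in triptolide replicate 1, with PSG1, PSG2, CYP19A1, ADAM12 and PAPPA2 among the 9. Genes outside the trophoblast list were also highest in that library, among them HES1, NOTCH4 and CLDN4. Transcript GC content was 55.6% for DLK1, 63.4% for H19, 63.1% for PHLDA2 and 63.8% for CDKN1C. For PSG1, PSG2, CYP19A1, ADAM12 and PAPPA2 it was 44.7%, 44.3%, 42.1%, 47.0% and 48.7%. HES1 at 49.9% and the marker PLAC4 at 46.2% were nevertheless highest in triptolide replicate 1. The part of GC content in the ranks of that library was not tested. Of the 5 other imprinted genes that rose, 1 was highest and 4 lowest there. Without triptolide replicate 1, the log2 fold changes were 2.46 for DLK1, 0.77 for PHLDA2 and 1.54 for H19. IGF2 had 10 counts and PEG3 1 count over the same triptolide libraries in which CSH1 had 10033, 7363 and 8414. The part of the trophoblast transcripts in the changes of DLK1, H19, PHLDA2 and CDKN1C was not tested.

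Of 16 blood, stromal and vascular markers of placenta in the table, 7 were tested, 5 rose and 1 fell (CDH5, adjusted p = 0.0471, a call lost in 9 alternatives), beside 10.0% and 5.82% of all tested genes, with sums of 24.4 to 29.4 CPM untreated and 30.5 to 46.5 CPM with triptolide. The most abundant with triptolide were CDH5 at 15.9 ± 2.15, HBB at 5.49 ± 2.15, HBA2 at 4.66 ± 1.9 and CD14 at 3.52 ± 1.32 CPM. All 5 that rose, HBA2, HBA1, CSF1R, HBB and VWF, passed the filter only through the triptolide group. CDH5 had 23.6 ± 2.54 CPM untreated, and CD14 had 1.81 ± 0.40 CPM and was not called (adjusted p = 0.058). HBG1, HBG2 and CD163 were at 0 in the untreated libraries. Of 19 fibroblast and mesenchymal markers 15 were tested and 10 fell, beside 5.82% of all tested genes, with sums of 651 to 804 CPM untreated and 361 to 457 CPM with triptolide. THBS1, COL1A1, SPARC and POSTN, genes of matrix proteins, fell from 28.6 ± 6.53, 61.1 ± 12.1, 18.3 ± 3.34 and 8.16 ± 3.99 CPM to 0.416 ± 0.15, 2.83 ± 0.50, 3.05 ± 0.30 and 0.0412 ± 0.04 CPM. FN1 fell from 180 ± 45.8 to 21.7 ± 12.2 CPM. Not called were COL1A2 at 323 ± 30.8 and 329 ± 54.5 CPM (adjusted p = 0.936), COL3A1 at 53.1 ± 3.34 and 37.3 ± 4.69 CPM (0.0547) and TAGLN at 12.7 ± 1.64 and 9.23 ± 1.14 CPM (0.116). CDH2 and FAP were at 0 with triptolide, and THBS1, POSTN and CDH2 passed the filter only through the untreated group.

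Fetal liver and developing muscle also express H19, IGF2 and DLK1. Of 12 fetal hepatocyte markers in the table only TF was tested, and it rose from 0.259 ± 0.084 to 1.78 ± 0.27 CPM, passing the filter through the triptolide group, while the list summed to 0.729 to 1.27 CPM untreated and 2.44 to 3.37 CPM with triptolide. APOA2, FGG and HP were at 0 untreated and FGA at 0 with triptolide, and ALB had 2 counts without triptolide and 15 with it. SERPINA1 had 15 and 18 counts and VTN 16 and 18. Of 13 muscle markers 3 were tested and 3 were not called, with sums of 44.4 to 68.6 and 50 to 64.4 CPM. MYOG, MYF5, TNNT3 and CHRNA1 were at 0 in the untreated libraries, and MYF6 and MYH2 in the triptolide libraries. Muscle marker levels were led by TNNT1, at 49.7 ± 12.3 and 55.2 ± 7.78 CPM, then MYH3 at 2.90 ± 0.34 and 2.15 ± 0.23 and ACTA1 at 0.72 ± 0.34 and 1.40 ± 0.54 CPM, while CKM had 3 and 17 counts. The carcinoma list of 12 genes held keratins, epithelial genes and VIM, a mesenchymal filament gene that is neither. Of 8 tested, 1 rose (CLDN4, from 67.1 ± 7.15 to 149 ± 54.4 CPM), beside 10.0% of all tested genes. Beside 5.82% of all tested genes, 2 fell (KRT18, from 870 ± 168 to 503 ± 57 CPM, and VIM, from 2260 ± 537 to 1358 ± 335 CPM). The list sums, which include VIM, were 4457 to 6617 CPM untreated and 3376 to 4073 CPM with triptolide. The VIM call held in 8 of 15 alternatives, that of KRT18 in 13 and that of CLDN4 in 15. Among the settings that ended the VIM call were ribosomal protein scaling (adjusted p = 0.155) and leaving out untreated replicate 3 (0.12). What these lists contribute to the levels of the imprinted genes was not tested.

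**Figure D4:**
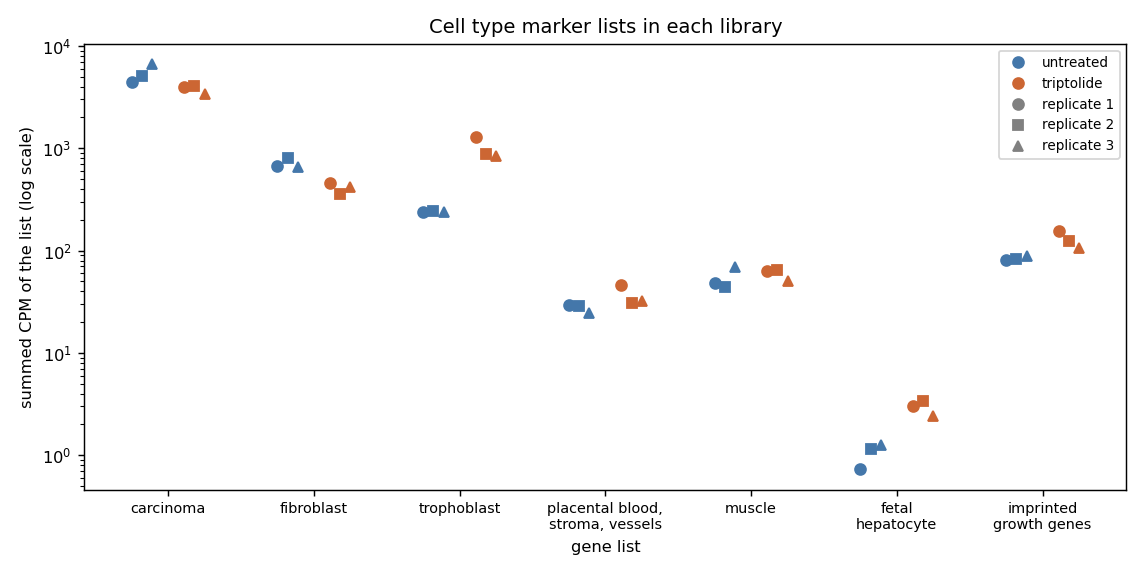
Summed level of each marker list and of the 10 imprinted growth genes in every library, in CPM on a log axis, with untreated libraries in blue, triptolide libraries in orange and replicates by shape. The trophoblast sum is 237 to 245 CPM untreated and 849 to 1277 CPM with triptolide, and the 10 growth genes sum to 80.3 to 88.3 and 107 to 154 CPM.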

How the data were processed

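RNA-seq counts were analysed for 3 untreated and 3 triptolide libraries of MIA PaCa-2. The values deposited by the authors are raw counts for each Ensembl gene, made with HISAT2 and featureCounts per the submitters' processing notes. The build, annotation, tool versions, strand setting and handling of multi-mapping reads were not given in the sources used here. The series' design text calls the triptolide cells a control group, so groups were taken from each sample's treatment label. Of 35716 IDs, 35639 matched a symbol.

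After filterByExpr and TMM scaling, edgeR 4.0.16 in R 4.3.3 fitted a quasi-likelihood model (glmQLFit, glmQLFTest) with a group term, and p-values were adjusted by Benjamini-Hochberg over all 15202 tested genes. A gene rose or fell at an adjusted p under 0.05. Each SE is the log2 fold change over the root of F. TMM-scaled library sizes gave the CPM. For the untested IGF2 and PLAGL1 a pooled ratio with a 95% exact interval is given in place of a fitted fold. Exon lengths and GC content came from GENCODE 29, with a GC value for 99.2% of tested genes. Alternatives used DESeq2 1.42.0, limma-voom (limma 3.58.1) and the settings in the closing section.

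The members and lists were chosen with earlier results of these data known. Named by rule were all members, their cluster neighbours, up to 4 called genes per direction of each list by adjusted p, and the 4 most abundant of each marker list. Others were named outside this rule and after their values were seen. Among these, NOTCH1, NOTCH2, NOTCH3, JAG2, DLK2, IGFBP5, SMCHD1 and IGF2R were uncalled but passed under an alternative. HYMAI was not analysed here. The fit was tested on data simulated from these libraries, with 50 genes at or above a set mean CPM changed at each fold. It recovered 10% of 1.5-fold, 76% of 2-fold and 100% of 4-fold and of 8-fold changes. Among unchanged genes 11 were called. A gene left uncalled may therefore have changed by 1.5-fold or 2-fold, and recovery at lower levels was not simulated. IGFBP5, for one, was uncalled at a fitted 2.7-fold (edgeR adjusted p = 0.0539). Figures used matplotlib 3.10.9.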

Additional observations from a re-analysis of the deposited data

How the results depend on the processing

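DLK1 and PHLDA2 kept their direction and call under every alternative that tested them, 14 and 15, and PEG10, MEG3 and GRB10 stayed uncalled. H19 kept its direction in 14 and lost its call in 5, and MEST gained a call in 1 of 15. With no low-count filter, log2 fold changes stayed close while edgeR adjusted p-values moved both ways. H19 went from 0.0339 to 6.23e-07 and DLK1 from 0.000292 to 5.24e-10. MEST went from 0.0606 to 0.118 and MEG3 from 0.105 to 0.184. Calls gained under that setting, as for NOTCH1, NOTCH2, NOTCH3, KCNQ1OT1 and JAG2, are subject to such shifts. A mean of at least 5 CPM, which leaves 10290 genes and removes H19, DLK1, MEG3 and PEG10 by construction, gave 584 genes higher and 336 lower, 1 member higher, and 2 other imprinted genes higher and 0 lower. All 15202 genes gave 1527 higher and 884 lower, 3 members higher and 0 lower, and 5 other imprinted genes higher and 2 lower. Scaling on ribosomal protein genes, which shifted all genes' median log2 change from -0.004 to 0.168, gave 128 genes lower and 1 other imprinted gene lower. The GC offset gave 1807 genes lower, 1 member lower (MEST) and 4 other imprinted genes lower, and the cause was not tested. With libraries left out in turn, 953 to 1580 genes were higher and 407 to 1034 lower. Genes higher were fewest without untreated replicate 2 (953); genes lower were 407 without it, 457 without triptolide replicate 3 and 529 without untreated replicate 1. Other imprinted genes numbered 4 to 8 higher (8 without triptolide replicate 2) and 1 to 2 lower (1 on leaving out untreated replicate 1, untreated replicate 2, triptolide replicate 2 or triptolide replicate 3). Same-numbered libraries were not paired by the labels, and their deviations from the group means correlated at 0.029, -0.041 and -0.44. With the replicate block, 1523 genes were higher and 856 lower, 3 members were higher, and other imprinted genes higher numbered 7, with KCNQ1OT1 (adjusted p = 0.0156) and IGF2R (0.0449) gained. The block also brought calls for NOTCH2 (0.0252), NOTCH3 (0.0449), IGFBP5 (0.0281), SMCHD1 (0.0366) and CD14 (0.0337) and ended that of CDH5 (0.0958). Members with under about 10 counts per library (IGF2, PEG3, PLAGL1) are limited by depth.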
